A study of Mus musculus with 18 samples.

Results

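The messenger RNAs of 8 CXC chemokines were followed in bone marrow-derived macrophages (BMDMs): Cxcl1, Cxcl2, Cxcl3, Cxcl9, Cxcl10, Cxcl11, Cxcl14 and Cxcl16. They were picked by gene symbol from the CXC family, with earlier results of these data known. All 8 were among the 24485 genes listed in each of the 18 libraries. BMDMs came from 3 male Il10-/- mice on the C57BL/6J background, 12 weeks old, and were grown for 6 days in L929 conditioned medium. Every group lacked Il10, so the cells could not make IL-10 of their own, and no wild-type library was analysed here. The 6 groups of 3 libraries were Unstimulated_Untreated, Unstimulated_JQ1, Unstimulated_IL10, LPS_Untreated, LPS_JQ1 and LPS_IL10. JQ1 stands for (+)-JQ1 at 500 nM and IL-10 for the recombinant cytokine at 10 ng/mL, each given for 12 h before lipopolysaccharide (LPS) at 50 ng/mL or PBS was added for a further 4 h. Cells given neither agent carry the label untreated, and per the published methods they received vehicle where LPS followed. Those methods name no vehicle for untreated unstimulated cells, so comparisons with that group cannot tell an agent or LPS from vehicle. Replicates 1, 2 and 3 were taken as the 3 mice, each of which gave 1 culture to every group.

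CXC chemokines are small secreted proteins that draw leukocytes along a gradient. Cxcl1, Cxcl2 and Cxcl3 bind Cxcr2 and recruit neutrophils. Cxcl9, Cxcl10 and Cxcl11 are induced by interferons and bind Cxcr3 on activated T cells and NK cells, and C57BL/6 mice are known not to make Cxcl11 protein. Cxcl14 is made in many tissues without inflammation and its receptor is debated. Cxcl16 is made as a membrane protein, can be shed by the protease Adam10, and binds Cxcr6. LPS acts on macrophages through Tlr4, which activates NF-kB and, through interferon beta, the interferon response genes. IL-10 acts through Stat3 to restrain this response, and JQ1 displaces the BET proteins, readers of acetylated histones, from chromatin.

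Of the 8 genes, 6 lie in 2 groups on chromosome 5 (mm9, the build of the deposited files). Cxcl3 (5:91215129-91217112), Cxcl1 (5:91320267-91322141) and Cxcl2 (5:91332897-91334935) are all on the plus strand within 119.8 kb. Cxcl9 (5:92750357-92757105), Cxcl10 (5:92775664-92777915) and Cxcl11 (5:92788570-92794511) are all on the minus strand within 44.2 kb. A gap of 1415 kb separates the 2 groups. Cxcl14 (13:56390008-56397912) and Cxcl16 (11:70267485-70273486) are alone, both on the minus strand. Cxcl10 and Cxcl11 overlap Art3 on the opposite strand, which had at most 3 counts in any library. Cxcl11 also overlaps Gm2673 on the opposite strand. Cxcl16 overlaps Zmynd15 on the opposite strand. The coding sequences of Cxcl2 and Cxcl3 were 89.8% identical and their transcripts shared 61 stretches of 50 bases, the read length, whereas every other pair among the 7 members with a protein-coding transcript in the annotation shared 0. Cxcl11 was not compared. Reads were divided between Cxcl2 and Cxcl3 by estimation where they matched both.

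The sequence just upstream of the start site is shown for the 6 members that had a RefSeq promoter window (GRCm38.p6, a later build than that of the counts), because the members differ there in the motifs of the pathways that LPS activates. The windows are Cxcl3 chr5:90785951-90786100 (+), Cxcl1 chr5:90891095-90891244 (+), Cxcl2 chr5:90903749-90903898 (+), Cxcl9 chr5:92328080-92328329 (-), Cxcl10 chr5:92348890-92349139 (-) and Cxcl14 chr13:56296552-56296701 (-). Each ends at the base before the start and is read 5′ to 3′ on the strand of the gene. They cover 250 bases for Cxcl9 and Cxcl10 and 150 bases for the other four, and capitals mark the motif matches.
Cxcl3: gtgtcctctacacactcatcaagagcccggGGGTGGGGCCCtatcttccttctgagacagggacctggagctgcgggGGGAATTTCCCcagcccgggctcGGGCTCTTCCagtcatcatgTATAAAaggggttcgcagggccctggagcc
Cxcl1: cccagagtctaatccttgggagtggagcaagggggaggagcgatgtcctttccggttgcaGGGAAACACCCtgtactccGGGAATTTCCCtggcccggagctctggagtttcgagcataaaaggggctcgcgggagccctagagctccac
Cxcl2: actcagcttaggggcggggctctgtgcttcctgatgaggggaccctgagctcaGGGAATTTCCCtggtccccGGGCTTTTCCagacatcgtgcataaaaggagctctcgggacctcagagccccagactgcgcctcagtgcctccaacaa
Cxcl9: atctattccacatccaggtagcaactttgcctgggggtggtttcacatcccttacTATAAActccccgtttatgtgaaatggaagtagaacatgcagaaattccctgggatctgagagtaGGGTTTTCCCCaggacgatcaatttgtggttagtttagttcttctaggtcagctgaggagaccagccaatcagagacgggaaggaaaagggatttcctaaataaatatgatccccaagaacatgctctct
Cxcl10: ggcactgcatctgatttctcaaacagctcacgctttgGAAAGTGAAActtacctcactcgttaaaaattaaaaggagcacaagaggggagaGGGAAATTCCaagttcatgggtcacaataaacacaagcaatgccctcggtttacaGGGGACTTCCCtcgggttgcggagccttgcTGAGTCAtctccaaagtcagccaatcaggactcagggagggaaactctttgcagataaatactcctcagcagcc
Cxcl14: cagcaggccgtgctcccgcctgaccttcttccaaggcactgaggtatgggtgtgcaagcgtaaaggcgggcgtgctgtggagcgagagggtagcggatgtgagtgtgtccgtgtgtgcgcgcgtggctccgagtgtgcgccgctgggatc
Motifs were searched on both strands in the full windows, 250 bases before to 50 after the start, as GGGNNNNNCC (NF-kB), GAAANNGAAA (interferon response element), TGANTCA (AP-1), TTCNNNGAA (gamma-activated site) and TATAAA (the core promoter box of that name), and overlapping matches are 1 run of capitals. The NF-kB letters were found in 5 of the 6 members, all except Cxcl14, and in 50.8% of all 32851 windows. The interferon response element was in Cxcl10 and Cxcl14, against 3.44% of all windows. Their matches began at -213 in Cxcl10 and -172 in Cxcl14, counted from the start, the latter outside the printed stretch. AP-1 letters were in Cxcl9 and Cxcl10, against 7.81% of windows, and that of Cxcl9 lay after the start. A gamma-activated site was in Cxcl14 alone of the 6, against 8.3% of windows, outside the printed stretch. TATAAA was in Cxcl3 and Cxcl9, against 13.6% of windows, and in Cxcl3 it began at -30. Cxcl1, Cxcl2 and Cxcl3 shared the 11-base run GGGAATTTCCC, found on either strand in 14 of the 32851 windows (0.0426%). This run was picked after the sequences were seen. Over the 150 bases before the start, Cxcl1 and Cxcl3 were 59.6% identical, Cxcl1 and Cxcl2 56.4%, Cxcl2 and Cxcl3 55.9%, and Cxcl9 and Cxcl10 54.4%. Pairs from different gene groups, those with Cxcl14 included, were 44.1% to 51.4% identical. The motif matches describe letters and not bound sites.

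**Figure D1:**
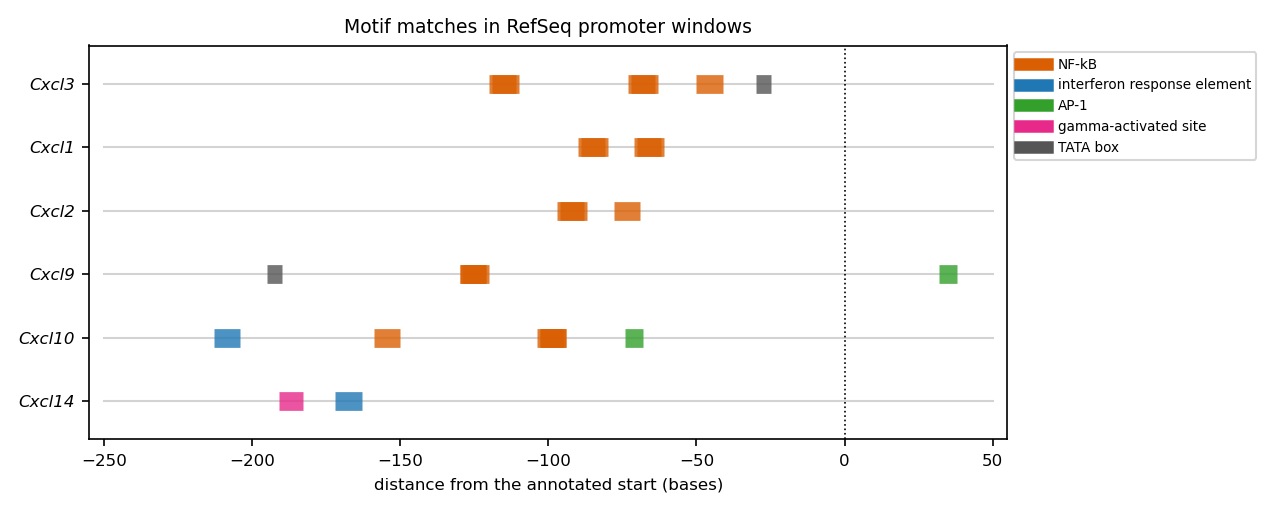
Motif matches in the promoter windows of 6 CXC chemokines by distance from the transcription start in bases (x axis), 1 row per gene, with a mark for each match by motif. NF-kB letters are found in every row except that of Cxcl14, the farthest beginning at -159 in Cxcl10.

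The libraries held 6781952 to 28289498 expected counts, which puts the level that 3 counts allow between 0.106 and 0.442 CPM. Intervals on counts cover counting error only. All 8 macrophage markers were detected in every group, with a summed level of 14317 to 29066 TPM, the lowest with LPS. The summed levels of the T cell, B cell, NK cell and epithelial markers stayed under 1 TPM in every library. The 7 neutrophil markers summed to 6.76 to 76.3 TPM, with Ly6g at 0 in every library. The 3 endothelial markers summed to 7.89 to 9.98 TPM with LPS, 0.04 to 0.28 with LPS and JQ1 and 8.37 to 9.89 with LPS and IL-10. For the 6 fibroblast markers the sums were 17.5 to 19.7, 2.23 to 7.23 and 19.8 to 20.9 TPM, and for the 4 dendritic cell markers 4.06 to 5.24, 1.64 to 2.1 and 2.41 to 3.33 TPM. These sums moved with the groups, and their part in the results was not tested. In bulk RNA, fewer cells that make a transcript and less transcript per cell cannot be told apart. Unstimulated_Untreated replicate 1 had the highest Cxcl2, Cxcl3, Cxcl9, Cxcl10 and Cxcl16 of its group. Its Cxcl10 value gave a Cook's distance of 5.05 against a limit of 4.82, for which DESeq2 withholds the p of Cxcl10 in every comparison. LPS moved the median gene by -0.07 (log2) with the normalisation used here and by -1.0 when scaled to total counts.

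Without stimulus or pretreatment, Cxcl16 and Cxcl14 stood above the other 6 members. On the TPM scale, which allows for transcript length, Cxcl16 stood at 255 ± 52 (SD, n = 3 in this and all groups) and Cxcl14 at 105 ± 10.5. The 2 did not overlap. Cxcl2 followed at 8.36 ± 2.59 TPM and Cxcl10 at 8.01 ± 10.5, and their ranges overlapped. Cxcl3, Cxcl9, Cxcl1 and Cxcl11 had means of 1.07 TPM or less and overlapped with their neighbours in the order. The 8 genes together made up 379 ± 61 TPM, or 0.0379% of the summed TPM of all genes. Of their sum Cxcl16 was 67.0% and Cxcl14 28.3%.

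LPS turned this repertoire around. The order of levels became Cxcl10 (11713 ± 924 TPM), Cxcl2 (2651 ± 251), Cxcl1 (746 ± 87.9), Cxcl16 (616 ± 6.77), Cxcl3 (443 ± 7.71), Cxcl9 (266 ± 48.8), Cxcl11 (74.7 ± 13.7) and Cxcl14 (42.1 ± 5.31), and no 2 neighbours overlapped. The sum of the 8 rose to 16552 ± 1048 TPM, 1.66% of the summed TPM of all genes. Of the sum of the 8, Cxcl10 alone made up 70.7% ± 2.0 and Cxcl14 0.256%. In the DESeq2 fit 6 of the 7 members with an adjusted p rose with LPS, against 31.6% of all genes tested, and 1 fell, against 32.9%. The median log2 fold change was 9.25 over the 8 members and -0.07 over all genes tested.

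Among the neutrophil attractants, normalised counts of Cxcl1 in replicates 1, 2 and 3 were 3.09, 0 and 5.36 without stimulus and 7489, 6391 and 7314 with LPS. Cxcl2 went from 72.5, 47.4 and 42.9 to 33988, 27087 and 27910, and Cxcl3 from 15.4, 0 and 3.35 to 4953, 4620 and 4201. Every LPS library was far above every unstimulated one for the 3 genes. The log2 fold changes were 11.06 ± 0.683 (SE) for Cxcl1 (DESeq2, adjusted p = 4.45e-58), 9.09 ± 0.338 for Cxcl2 (4.09e-158) and 9.41 ± 0.738 for Cxcl3 (2.08e-36). Because the unstimulated counts of Cxcl1 and Cxcl3 were so low, the size of these folds is loosely held. Without Unstimulated_Untreated replicate 1 that of Cxcl3 was 11 (log2), and without replicate 3 that of Cxcl1 was 11.79.

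The Cxcr3 ligands rose as steeply. Cxcl10 stood at 130, 6.77 and 19.4 normalised counts without stimulus and at 131583, 133735 and 133664 with LPS, a log2 fold change of 11.29 ± 0.594. It has no adjusted p, for the reason given, and one of 1.47e-79 without the Cook's distance filter. Leaving out Unstimulated_Untreated replicate 1 put its log2 fold change at 13.05. Cxcl9 went from 52.5, 6.77 and 1.34 to 8681, 8128 and 10109 (log2 8.78 ± 0.898, DESeq2 adjusted p = 6.53e-22), and without the same library its log2 fold change was 11.53. Cxcl11 had a single count over the 3 unstimulated libraries and 1220, 1241 and 1476 normalised counts with LPS. That is a ratio of 4433 with a counting interval of 795 to 175152. The transcript counted as Cxcl11 says nothing of its protein.

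Cxcl16 and Cxcl14, the members already expressed, moved little by comparison. Cxcl16 went from 5105, 3734 and 3722 to 18381, 17838 and 16048 normalised counts, a log2 fold change of 2.06 ± 0.115 (DESeq2 adjusted p = 9.28e-71). Cxcl14 was 1147, 1451 and 1164 without stimulus and 964, 955 and 681 with LPS. All 3 LPS libraries were below all 3 unstimulated ones, and Cxcl14 fell by 0.53 ± 0.178 on the log2 scale (DESeq2 adjusted p = 0.0051). The sizes of both changes depended on the scaling. With total counts and with limma on log2(TPM + 1), the log2 change of Cxcl16 was 1.1 and 1.29 and that of Cxcl14 was -1.46 and -1.30, with the same directions and calls.

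**Figure D2:**
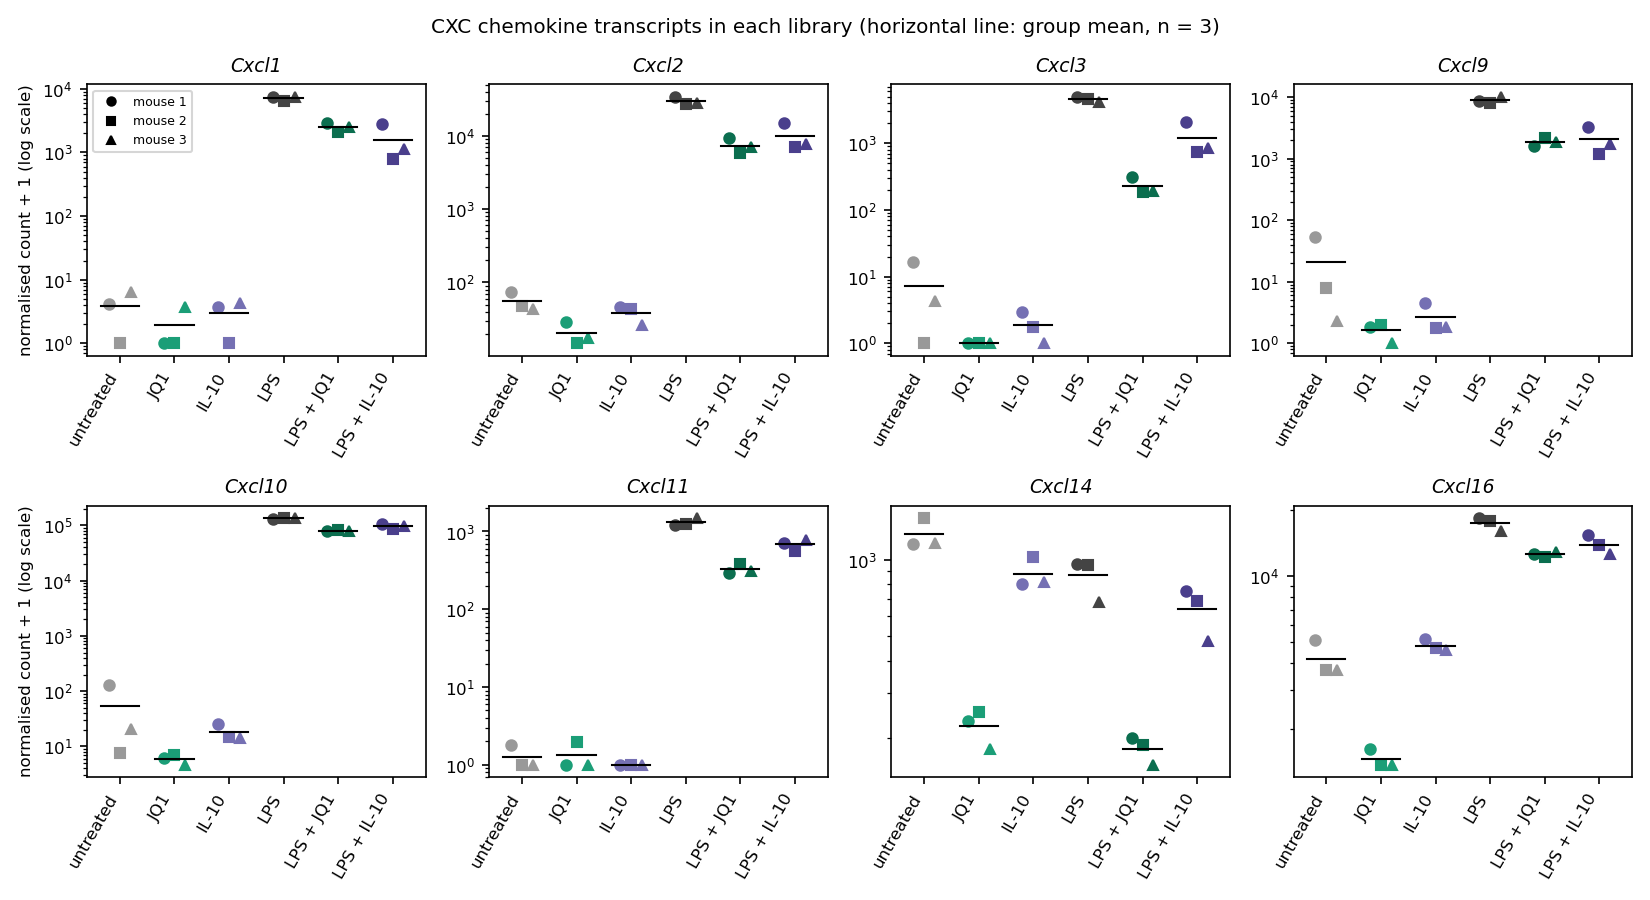
Normalised count plus 1 (log axis) of each of the 8 chemokines in the 6 groups, 1 point per mouse, with a line at the mean of 3. LPS libraries stand far above unstimulated ones for 6 members, by about 4-fold for Cxcl16, and below them for Cxcl14, and the JQ1 libraries of Cxcl3 and Cxcl14 lie at or below the others with and without LPS.

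Pretreatment with JQ1 lowered the LPS-stimulated level of the CXC chemokines, by very different amounts. Cxcl3 retained 4.99% of its LPS level, Cxcl14 20.8%, Cxcl9 21%, Cxcl2 24.8%, Cxcl11 25.0% and Cxcl1 35.4%, whereas Cxcl10 retained 59.6% and Cxcl16 72.3%. All 7 members with an adjusted p were lower, where 32.9% of all genes tested were lower and 24.4% higher. For all 8 members the 3 LPS_JQ1 libraries lay below the 3 LPS_Untreated libraries, as did 35.4% of the genes tested. The median log2 fold change was -2.0 over the members and -0.11 over all genes tested.

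Cxcl3 had the deepest loss. Its normalised counts were 311, 183 and 193 in LPS_JQ1 against 4953, 4620 and 4201 in LPS_Untreated, and the groups were more than 10-fold apart at their nearest. The log2 fold change was -4.32 ± 0.669 (DESeq2 adjusted p = 4.37e-10). Its near-identical relative Cxcl2 had 9234, 5866 and 6955 in LPS_JQ1 against 27087 to 33988, a log2 fold change of -2.01 ± 0.318 (1.08e-09). Cxcl1 had 2940, 2071 and 2488 against 6391 to 7489 (log2 -1.50 ± 0.519, DESeq2 adjusted p = 0.00792). The groups of Cxcl1 did not overlap, but with the mouse as a block its adjusted p was 0.0662, and without LPS_JQ1 replicate 2 it was 0.0528.

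Among the Cxcr3 ligands, Cxcl10 kept most of its level and Cxcl9 and Cxcl11 did not. Cxcl10 had 78438, 81381 and 78046 normalised counts in LPS_JQ1 against 131583 to 133735 in LPS_Untreated. The values within each group differed by a few percent and the groups were apart, yet the log2 fold change of -0.75 had an SE of 0.582. That SE came from the dispersion shared over all 18 libraries, to which Unstimulated_Untreated replicate 1 belonged. Its adjusted p was 0.278 without the Cook's distance filter, 0.307 with the mouse as a block, 3.78e-18 when the LPS_Untreated and LPS_JQ1 libraries were fitted alone, and 1.24e-18 when that one library was left out. With edgeR it was 0.0723, and with limma on log2(TPM + 1) it was 0.463 (log2 -0.45). Total counts gave a log2 fold change of -0.37. Cxcl9 fell to 1620, 2159 and 1883 from 8681, 8128 and 10109 (log2 -2.25 ± 0.878, DESeq2 adjusted p = 0.0199). The same library weighed on its dispersion, and the adjusted p was 1.13e-15 when it was left out. Leaving out LPS_Untreated replicate 1 or 3, or LPS_JQ1 replicate 1 or 3, moved it to between 0.0531 and 0.0686. With total counts it was 0.0551 (log2 -1.87). Cxcl11 had 295, 380 and 308 in LPS_JQ1 against 1220, 1241 and 1476, a log2 fold change of -2.0 ± 0.153 (DESeq2 adjusted p = 4.33e-38).

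Cxcl14 had 199, 186 and 156 normalised counts in LPS_JQ1 against 964, 955 and 681 in LPS_Untreated, a log2 fold change of -2.26 ± 0.188 (DESeq2 adjusted p = 3.34e-32). Cxcl16 had 12687, 12279 and 12835 against 18381, 17838 and 16048 (log2 -0.47 ± 0.114, DESeq2 adjusted p = 0.000114). The groups of Cxcl16 were apart, but its call rested on the scaling. With total counts the log2 fold change was -0.09 (adjusted p = 0.527), with the median gene at 0.28, and with limma on log2(TPM + 1) it was -0.16 (0.198). Zmynd15, which overlaps Cxcl16 on the other strand, had 116, 106 and 128 normalised counts in LPS_JQ1 against 1091, 1125 and 863. The library kit marks strand, and whether the counting used it is not given in the sources used here.

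IL-10 pretreatment also lowered these chemokines during LPS, with another ranking. Cxcl1 retained 22.5% ± 15.5 (SD) of its mean LPS level, Cxcl9 23.2% ± 12.3, Cxcl3 26.5% ± 16.0, Cxcl2 33.1% ± 14.5, Cxcl11 52.1% ± 8.56, Cxcl10 72.3% ± 7.11, Cxcl14 73.7% ± 16.6 and Cxcl16 80.1% ± 7.89. Of the 7 members with an adjusted p, 5 were lower, where 8.81% of all genes tested were lower and 8.38% higher. The 3 LPS_IL10 libraries lay below the 3 LPS_Untreated libraries for 7 of the 8, all except Cxcl14, and for 13.6% of the genes tested. The median log2 fold change was -1.27 over the members and -0.02 over all genes tested.

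The 3 mice differed more after IL-10 than after JQ1. Cxcl1 had 2838, 800 and 1139 normalised counts in LPS_IL10, Cxcl2 14785, 7040 and 7663, and Cxcl3 2058, 731 and 857. Replicate 1 was the highest of its group for all 3 neutrophil attractants, at 40.2%, 49.8% and 44.8% of the mean LPS level, and still below every LPS_Untreated library. The log2 fold changes were -2.15 ± 0.519 for Cxcl1 (DESeq2 adjusted p = 0.000463), -1.59 ± 0.318 for Cxcl2 (1.09e-05) and -1.92 ± 0.666 for Cxcl3 (0.0268). Cxcl3 lost its call without any 1 of the 3 LPS_Untreated libraries or without LPS_IL10 replicate 2 or 3, with adjusted p-values of 0.106 to 0.167. Without LPS_IL10 replicate 1 the log2 fold change was -2.86 for Cxcl1 and -2.53 for Cxcl3.

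Cxcl9 showed the same spread, with 3318, 1201 and 1720 normalised counts in LPS_IL10 and replicate 1 the highest. The groups did not overlap (log2 -2.11 ± 0.878, DESeq2 adjusted p = 0.0817), and with the mouse as a block the adjusted p was 0.0244. With the LPS_Untreated and LPS_IL10 libraries fitted alone it was 0.000118. Cxcl10 had 104506, 85883 and 98027 (log2 -0.47 ± 0.582, with no adjusted p), again with no overlap with LPS_Untreated. Its DESeq2 adjusted p was 0.704 without the Cook's distance filter and 3.43e-07 without Unstimulated_Untreated replicate 1. Cxcl11 had 704, 562 and 784, a log2 fold change of -0.94 ± 0.149 (DESeq2 adjusted p = 1.14e-08).

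Cxcl14 had 754, 686 and 478 normalised counts in LPS_IL10, which overlapped with LPS_Untreated (964, 955 and 681). Its log2 fold change was -0.44 ± 0.18 (DESeq2 adjusted p = 0.0709), and 0.00366 was the adjusted p with the mouse as a block. It also passed without LPS_Untreated replicate 3 (0.0106) or LPS_IL10 replicate 1 (0.0221). Cxcl16 had 15342, 13916 and 12594 and passed narrowly (log2 -0.32 ± 0.114, DESeq2 adjusted p = 0.0321). Its call was lost without LPS_Untreated replicate 1 or 2 or without LPS_IL10 replicate 2 or 3 (0.0967 to 0.149), and with edgeR's quasi-likelihood test (0.0563). The call of Cxcl16 was also lost with total counts (log2 -0.23, DESeq2 adjusted p = 0.169) and with limma on log2(TPM + 1) (-0.21, 0.21). With LPS_Untreated and LPS_IL10 fitted alone the DESeq2 adjusted p was 0.0892.

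Setting LPS_JQ1 against LPS_IL10 asked where the 2 agents left different levels, over the same LPS stimulus. The dose of each was single, and the comparison shares its libraries with those above. Of the 7 members with an adjusted p, 3 were lower with JQ1, a class that held 31.6% of all genes tested, and 0 were higher. The 3 were Cxcl14 (log2 -1.82 ± 0.189, DESeq2 adjusted p = 6.16e-21), Cxcl11 (-1.06 ± 0.155, 2.95e-11) and Cxcl3 (-2.41 ± 0.669, 0.000807). All 3 JQ1 libraries were below all 3 IL-10 libraries for each, but the share of all genes separated in this way was not counted. The difference of Cxcl3 was -1.79 without LPS_IL10 replicate 1 (adjusted p = 0.00511).

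Cxcl1 had the opposite order of means. It was 0.65 higher on the log2 scale with JQ1, with a 95% interval of -0.37 to 1.67 and an adjusted p of 0.298 (DESeq2). This value depended on LPS_IL10 replicate 1 and on the fit. Without that library the log2 difference was 1.36 (DESeq2 adjusted p = 2.54e-13). With all libraries edgeR called it (0.75, adjusted p = 0.0309), as did limma on log2(TPM + 1) (1.04, 0.0125). Cxcl2 differed by -0.42 (interval -1.04 to 0.2, adjusted p = 0.272, and 0.0212 with the mouse as a block). Cxcl9 differed by -0.14 (interval -1.86 to 1.58), Cxcl10 by -0.28 (-1.42 to 0.86) and Cxcl16 by -0.15 (-0.37 to 0.08). No difference was called for the last 3, and the interval of Cxcl9 holds differences of more than 2-fold in both directions. Without Unstimulated_Untreated replicate 1 in the fit, the adjusted p of Cxcl10 was 0.00204.

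**Figure D3:**
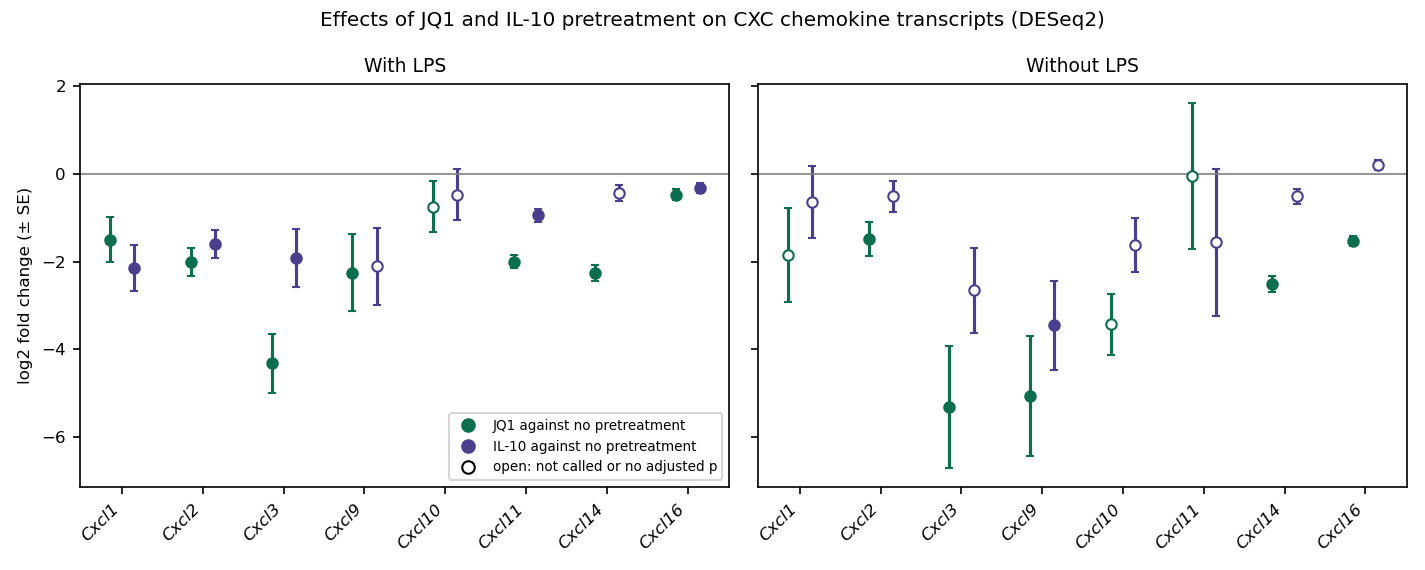
Log2 fold change (y axis) of the 8 chemokines (x axis) for JQ1 and for IL-10, with LPS (left) and without (right), and bars of 1 SE. Filled points passed an adjusted p of 0.05 and open points did not or had none. With LPS every point lies below 0, and JQ1 lies well below IL-10 for Cxcl3, Cxcl11 and Cxcl14.

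Ratios within a library do not depend on its scaling and describe how members of 1 gene group stood to each other in these libraries. The ratios were picked after the values were seen. Cxcl3 was 15.7%, 18.4% and 16.2% of Cxcl2 (TPM) in LPS_Untreated replicates 1, 2 and 3, 3.64%, 3.37% and 3.0% in LPS_JQ1, and 15%, 11.2% and 12.1% in LPS_IL10. The JQ1 libraries stood clear of the other 6, and those with IL-10 were below LPS alone by a small margin. Cxcl1 was 26.0%, 27.7% and 30.8% of Cxcl2 with LPS, 37.5%, 41.5% and 42.0% in LPS_JQ1, and 22.6%, 13.3% and 17.5% in LPS_IL10. The 2 agents thus moved this ratio in opposite directions.

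Cxcl9 was 2.2%, 2.05% and 2.53% of Cxcl10 with LPS, 0.689%, 0.893% and 0.817% in LPS_JQ1 and 1.06%, 0.474% and 0.586% in LPS_IL10. It was lower with both agents than with LPS alone, and the ranges of the 2 agents overlapped. Cxcl11 was 0.594%, 0.599% and 0.71% of Cxcl10 with LPS, 0.241%, 0.301% and 0.255% in LPS_JQ1 and 0.433%, 0.424% and 0.514% in LPS_IL10, and no groups overlapped. In 12 exact two-sided permutation tests over 4 ratios and 3 pairs of groups, 11 gave p = 0.1 (adjusted 0.109), the smallest that 3 against 3 allows, and Cxcl9 to Cxcl10 gave 0.6 between JQ1 and IL-10. No ratio could pass 0.05 in this design.

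**Figure D4:**
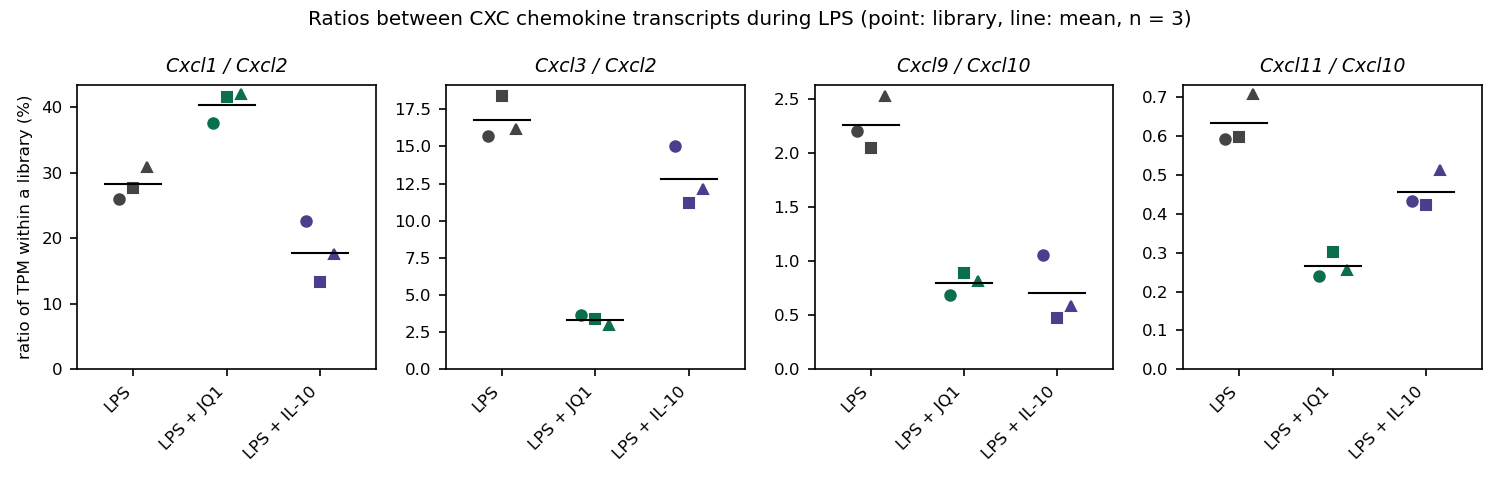
Within-library ratios of TPM in percent (y axis) for the 4 pairs of chemokines in LPS_Untreated, LPS_JQ1 and LPS_IL10, 1 point per mouse. With JQ1 the ratio of Cxcl3 to Cxcl2 is 3.0 to 3.64% against 15.7 to 18.4% with LPS alone, while that of Cxcl1 to Cxcl2 is higher than with LPS alone.

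In unstimulated cells the 2 members that were expressed there were lower with JQ1. With no vehicle named for the untreated unstimulated cells, JQ1 and its vehicle cannot be told apart in this comparison. Cxcl14 had 232, 251 and 180 normalised counts with JQ1 against 1147, 1451 and 1164, a log2 fold change of -2.50 ± 0.183 (DESeq2 adjusted p = 1.25e-40). Cxcl16 had 1620, 1371 and 1370 against 5105, 3734 and 3722 (-1.53 ± 0.116, adjusted p = 1.72e-37). Neither overlapped. Cxcl2 had 27.7, 13.8 and 16.5 against 72.5, 47.4 and 42.9 (-1.49 ± 0.383, DESeq2 adjusted p = 0.000389). In all, 5 of the 7 members with an adjusted p were lower, against 23.7% of all genes tested.

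The other two were near the limit of detection. Cxcl3 had 0 counts in all 3 JQ1 libraries and 25 over the 3 untreated ones, most in replicate 1, which makes it at least 8.05-fold lower against 3 counts over the group. Its log2 fold change of -5.32 ± 1.39 (DESeq2 adjusted p = 0.000487) was -3.72 (0.029) without Unstimulated_Untreated replicate 1, and edgeR gave an adjusted p of 0.0852. With Unstimulated_Untreated and Unstimulated_JQ1 fitted alone, the DESeq2 adjusted p of Cxcl3 was 0.252. With limma it was 0.0677 on log2(TPM + 1) (log2 -0.84) and 0.016 on log2(TPM + 0.1). Cxcl9 had 2 counts with JQ1 and 74 without, a ratio of 35.7 (counting interval 9.55 to 300.0). Its adjusted p of 0.000711 (log2 -5.06 ± 1.36, DESeq2) became 0.122 (log2 -2.30) without Unstimulated_Untreated replicate 1. Cxcl1 had 3 counts against 12, a ratio of 3.86 (1.04 to 21.3), and was not called. Cxcl10 had 5.19, 5.91 and 3.66 normalised counts with JQ1 against 130, 6.77 and 19.4, with no overlap. Its log2 fold change was -3.43 ± 0.694 with no adjusted p, and without Unstimulated_Untreated replicate 1 it was -1.68 (DESeq2 adjusted p = 0.000849).

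IL-10 without LPS moved little. Cxcl9 was the only member called lower, against 1.01% of all genes tested (log2 -3.45 ± 1.02, DESeq2 adjusted p = 0.0307). Its normalised counts were 3.53, 0.768 and 0.831 with IL-10 against 52.5, 6.77 and 1.34, which overlapped. Without Unstimulated_Untreated replicate 1 the log2 fold change was -0.53 (adjusted p = 1), without each IL-10 library in turn it also lost its call (0.0595 to 0.139), and edgeR gave 0.207. Cxcl14 had 799, 1027 and 817 against 1147, 1451 and 1164, without overlap and lower in all 3 mice by 0.50 to 0.52 on the log2 scale. Its log2 fold change of -0.51 ± 0.176 had a DESeq2 adjusted p of 0.11, and of 0.00136 with the mouse as a block, so that 2 members were called lower there. It was 0.0469 without Unstimulated_IL10 replicate 2. Cxcl16 had 5158, 4680 and 4580 against 5105, 3734 and 3722 and overlapped (log2 0.20 ± 0.115, adjusted p = 0.671), and was 0.37 higher (0.00719) without Unstimulated_Untreated replicate 1.

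LPS still induced the inflammatory members after either pretreatment. After JQ1, 6 of 7 members rose, against 27.6% of all genes tested. Cxcl2 rose by 8.56 ± 0.366 (log2, DESeq2 adjusted p = 2.82e-119) and Cxcl10 by 13.98 ± 0.685 with no adjusted p. Cxcl3 was at least 250-fold higher, and the ratios were 2711 for Cxcl1 (counting interval 927 to 13151), 3087 for Cxcl9 (854 to 25494) and 1074 for Cxcl11 (192 to 42465). After IL-10, 6 rose, against 33.2%, and 1 fell, against 33.8%. Cxcl2 rose by 8.01 ± 0.336 and Cxcl11 was at least 1183-fold higher. Cxcl14 fell by 0.47 ± 0.179 after IL-10 (DESeq2 adjusted p = 0.0145), which was lost without Unstimulated_IL10 replicate 2 (0.118) or LPS_IL10 replicate 3 (0.137). After JQ1 its log2 change was -0.29 ± 0.193 (adjusted p = 0.191), and it was called lower with total counts (-0.66, adjusted p = 0.000631) and with limma on log2(TPM + 1) (-0.52, 0.00329). After IL-10 those fits gave -1.30 and -1.18.

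Cxcl16 was the member whose response to LPS differed by pretreatment. LPS raised it by 2.06 on the log2 scale in untreated cells, by 3.12 ± 0.116 after JQ1 (DESeq2 adjusted p = 3.01e-157) and by 1.54 ± 0.114 after IL-10 (2.87e-40, and by 0.71 with total counts). The interaction was 1.06 ± 0.163 for JQ1 (DESeq2 adjusted p = 9.47e-10), where 17.7% of all genes tested were called with a positive one. Cxcl16 thus fell to a smaller share of its level with JQ1 in unstimulated cells than in LPS-stimulated ones. Here too JQ1 cannot be told apart from its vehicle in the unstimulated cells. For IL-10 the interaction was -0.52 ± 0.162 (adjusted p = 0.022), where 3.44% of genes tested were called with a negative one. The adjusted p was 0.0627 with edgeR. It was 0.0556 to 0.101 without Unstimulated_Untreated replicate 2 or 3, Unstimulated_IL10 replicate 1, LPS_Untreated replicate 1 or 2, or LPS_IL10 replicate 2 or 3. Other interactions depended on the fit. With limma on log2(TPM + 1), JQ1 by LPS was called for Cxcl3 (-3.17, adjusted p = 8.37e-05), Cxcl11 (-1.66, 5.32e-06) and Cxcl14 (0.78, 0.00291). In the DESeq2 fit these were 0.99, -1.95 and 0.24, with no call. Total counts also called Cxcl14 (0.79, adjusted p = 0.00372). For IL-10 by LPS, the same limma fit called Cxcl1 (-2.14, 0.012) and Cxcl11 (-0.79, 0.0327). That of JQ1 on Cxcl10 was 2.69 ± 0.906 with no adjusted p (0.0338 with the mouse as a block), and 0.94 without Unstimulated_Untreated replicate 1 (0.0944). That of IL-10 on Cxcl2 was -1.08 ± 0.476 with an adjusted p of 0.188 (0.000226 with the block). With the block 2 members were called in each interaction.

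The makeup of the CXC output moved with these changes. In LPS_JQ1 the 8 genes summed to 10399 ± 385 TPM (1.04% of the summed TPM of all genes). In LPS_IL10 they summed to 11010 ± 1231 (1.1%), against 16552 ± 1048 with LPS alone. Cxcl10 made up 82.5% ± 2.19 with JQ1 and 82.8% ± 3.9 with IL-10, against 70.7% with LPS alone. Cxcl2 went from 16.0% to 7.79% and 8.39%, and Cxcl3 from 2.68% to 0.262% and 1.1%. In both pretreated groups Cxcl16 came after Cxcl10 and Cxcl2, with 551 ± 17.1 and 531 ± 16.0 TPM, above Cxcl1 with 323 ± 44.4 and 177 ± 110. With IL-10 the neighbours from Cxcl1 down to Cxcl14 overlapped. Without LPS the sum was 96.2 ± 10.8 TPM with JQ1 and 389 ± 17.9 with IL-10, against 379 ± 61.

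Of 7 other CXC ligands, Pf4, the platelet factor that macrophages also make, was the one at a level like that of the members. It rose with LPS (log2 0.95) and was lower in LPS_JQ1 (-1.65) and LPS_IL10 (-0.25), all DESeq2 calls. With LPS, 2 of the 4 that had an adjusted p were called higher, against 31.6% of all genes tested, with Cxcl5 (6.48, 0.857 TPM) as the second. Of 4 with an adjusted p, 3 were lower with JQ1 during LPS, against 32.9% of all genes tested, Cxcl5 (-1.92) and Cxcl12 (-1.14) being the others. Pf4 was the 1 of 2 that was lower with IL-10, against 8.81%. Cxcl5 and Cxcl12 lay near 1 TPM or under it. They were named after their values were seen.

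The receptors were mostly at low levels in these cells. Cxcr4, the receptor of Cxcl12, went from 362 to 1.04 TPM with LPS (log2 -7.63), the 1 of 5 receptors called lower (32.9% of all genes tested were), while Cxcr5 (2.75) and Cxcr6 (0.96) were called higher (31.6%). Cxcr2 stood at 0.15 TPM or less in every group. Cxcr3 was at 2.32 TPM with LPS, 0.207 with JQ1 and 1.05 with IL-10, and was called lower with both agents (log2 -3.80 and -1.27). With JQ1 Cxcr5 (-4.30) and Cxcr6 (-1.0) were lower too, which makes 3 of 5 against 32.9% of all genes tested, and 0 of 5 were higher, against 24.4%. Both lay near the limit of detection, Cxcr5 at 0.263 TPM with LPS and 0.0133 with JQ1, Cxcr6 at 0.853 and 0.523. Cxcr6 passed narrowly (DESeq2 adjusted p = 0.048). With IL-10 Cxcr3 was the 1 of 3 that was lower, against 8.81%. Receptors other than Cxcr4 were named after their values were seen.

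Among 7 proteases and mRNA decay factors that act on these chemokines or their transcripts, LPS raised 5 and lowered 1 (31.6% and 32.9% of all genes tested), with Zc3h12a (3.3), an RNase, and Zfp36 (2.34), which binds AU-rich elements, in the lead with the protease Mmp9 (1.87). JQ1 during LPS left 2 higher and 4 lower (24.4% and 32.9% of all genes), among them Mmp12 (-2.9) and Mmp9 (-2.01) down and Zfp36 (1.11) up. IL-10 left 2 of 6 higher (8.38% of all genes), with Zfp36 at 0.52, and 2 lower (8.81%), Mmp12 (-0.53) and Adam17 (-0.33). The list medians were 1.75, -0.22 and 0.01, against -0.07, -0.11 and -0.02 over all genes tested.

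Of 12 genes that feed interferon signals to the Cxcr3 ligands, 10 rose and 2 fell with LPS (31.6% and 32.9% of all genes tested). Of those whose normalised count averaged 100 or more, the transcription factors Irf7 (5.65), Irf1 (4.38) and Stat2 (3.72) rose most. JQ1 during LPS lowered 8 and raised 3 (32.9% and 24.4% of all genes), with Irf1 at -1.07, Irf9 at -1.06 and Irf7 at -0.89. IL-10 lowered 3 (8.81% of all genes), among them Irf8 (-1.45) and Irf1 (-0.9), and raised 3 (8.38%), among them Ifngr2 (0.61), a chain of the interferon gamma receptor. Ifnb1, which averaged under that count and was named after its values were seen, rose by 9.64 on the log2 scale with LPS. It stood at 19.5 ± 4.39 TPM with LPS, 0.773 ± 0.361 with JQ1 and 7.85 ± 2.89 with IL-10, and was called lower with both (log2 -4.96 and -1.40). The medians of the list were 2.09, -0.64 and 0.09.

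Of 11 genes of the Tlr4 and NF-kB route, 10 rose and 1 fell with LPS (31.6% and 32.9% of all genes tested), led by Nfkbiz (5.73), Nfkbia (4.74) and Nfkb2 (4.33). JQ1 during LPS lowered 7 and raised 0 (32.9% and 24.4% of all genes), with the receptor Tlr4 at -1.89, its adaptor Myd88 at -1.51 and the adaptor Ticam1 at -0.57. IL-10 lowered 3, which were Rel (-0.69), Nfkb1 (-0.4) and Ticam1 (-0.31), and raised 0 (8.81% and 8.38% of all genes). The medians were 3.38, -0.4 and -0.15.

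Each member was set beside the 8378 genes whose normalised count averaged 100 or more for likeness of profile, measured as the root mean square distance of centred log2 values over the 18 libraries. The nearest to Cxcl16 were Dock10 (0.216) and Prr5l (0.242), and to Cxcl14 Vwf (0.3), a gene best known from endothelium and platelets, and Arhgap4 (0.331). Cxcl2 lay nearest to the cytokine gene Tnf (0.5) and the CC chemokine Ccl3 (0.523), and Cxcl11 to Ccl3 (0.575) and Lhx2 (0.621). Cxcl3 lay nearest to Serpina3g (0.545) and Serpina3f (0.712). The distances were larger for Cxcl1 (Cd40, 0.854, and Ccl7, 0.982), Cxcl9 (Ccl22, 0.895, and Gbp4, 0.919) and Cxcl10 (Gbp5, 0.891, and Nos2, 0.899). The distances for Cxcl1, Cxcl3, Cxcl9, Cxcl10 and Cxcl11 include the scatter of their low or variable unstimulated counts.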

How the data were processed

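Paired 50 bp reads from a stranded, ribosomal RNA-depleted library kit were processed by the authors with TagDust, STAR on mm9 and RSEM 1.2.31. The deposited expected counts are reads per gene, with reads that match several genes divided among them. The deposited TPM values are scaled by the authors for effective length and sum to the same total in each library, and the deposited lengths are in bases. Expected counts were rounded and tested with DESeq2 1.42.0 (R 4.3.3, Wald test, group as the only term, all 18 libraries in 1 fit), with Benjamini-Hochberg adjustment over all genes and a threshold of 0.05. Cxcl10 has no p in that fit because of its Cook's distance. Normalised counts are counts divided by size factors.

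The same replicate number was taken to name the same mouse, as the labels describe matched cultures from 3 mice. The correlations of same-numbered libraries' deviations lay between -0.0937 and 0.381, and the fit with the mouse as a block is given where it changes a call. No replicate pair differed by less than sampling noise (chi-square per degree of freedom 3.97 to 28.34). Replicate 1 was on lane 7, replicate 3 on lane 8, and replicate 2 on lane 7 without LPS and lane 8 with it.

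Alternatives were edgeR 4.0.16, limma 3.58.1 on log2(TPM + 1) and log2(TPM + 0.1) with genes reaching a TPM of 1, TMM and total-count scaling, a filter on low counts, lane as a term, groups fitted alone and each library left out. A fit without the Cook's distance filter and one without Unstimulated_Untreated replicate 1 were added after seeing the data. The tests were tested on simulated data. All 8 members are named, with at most 3 called genes per pathway list and comparison, those with the largest change whose normalised count averaged 100 or more, and the 2 nearest profiles per member. Members and lists were chosen with earlier results of these data known.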

Additional observations from a re-analysis of the deposited data

Results flagged for a closer look

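In the DESeq2 fit, Cxcl16 was the member whose response to LPS was called different between pretreatments by a test of the difference itself. Its interaction of JQ1 with LPS was 1.06 on the log2 scale, from normalised counts of 5105, 3734 and 3722 (unstimulated), 1620, 1371 and 1370 (with JQ1), 18381, 17838 and 16048 (LPS) and 12687, 12279 and 12835 (LPS with JQ1). Its interaction of IL-10 with LPS was -0.52, with 5158, 4680 and 4580 in Unstimulated_IL10 and 15342, 13916 and 12594 in LPS_IL10.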

How the results depend on the processing

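Over 615 values of members under other fits, 519 kept their direction and side of the threshold, 27 lost a call, 60 gained one and 9 reversed, and over 342 with 1 library left out these counts were 272, 28, 41 and 1. Cxcl9 in LPS_JQ1 against LPS_IL10 (-0.14) was 0.13 with the replicate block, 0.15 with total counts, 0.11 with the lane, 0.17 and 0.18 with limma at pseudocounts 1 and 0.1, and -0.42 to 0.37 with an LPS_IL10 library left out, the latter without replicate 1. In that comparison Cxcl10 was 0.01 and Cxcl16 0.14 with total counts, and Cxcl16 0.05 and 0.05 with limma. Counts of members called (main value first) were 5 for IL-10 during LPS and 3 with limma at 0.1 (3 to 6 with a library left out). For IL-10 without LPS they were 1, and 2 with the replicate block, 3 with the lane and 0 with edgeR and both limma fits (0 to 3). For JQ1 by LPS they were 1, and 2 with the block, edgeR, total counts, no Cook's filter or the lane, and 4 and 3 with limma (1 to 3). For IL-10 by LPS they were 1, and 2 with the block, the lane and limma at 1, and 0 with edgeR, total counts, groups alone and limma at 0.1 (0 to 3). The causes were not tested. Leaving out single libraries gave 8 to 8 called for LPS, 6 to 7 for JQ1 during LPS, 3 to 4 for JQ1 against IL-10, 5 to 7 for JQ1 without LPS, 7 to 7 for LPS after JQ1 and 7 to 8 for LPS after IL-10. Total-count scaling took the share of calls that were higher from 49.0% to 20.1% for LPS, 42.5% to 64.9% for JQ1 during LPS, 48.7% to 71.1% for IL-10 during LPS, 42.9% to 61.2% for JQ1 against IL-10, 48.0% to 26.8% for JQ1 without LPS, 47.1% to 25.6% and 49.6% to 21% for LPS after JQ1 and IL-10, and 42.6% to 85.4% and 53.7% to 73.6% for the interactions of JQ1 and IL-10. Depth limits Cxcl1, Cxcl3, Cxcl9 and Cxcl11 without LPS.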
